A study of Mus musculus with 5 samples.

Results

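Runx1 and the gene-poor stretch upstream of it were examined on mouse chromosome 16, in 21 bins of 50 kb that run from 92550001 to 93600000 in the build mm9. The first bin lies before the gene, 5 bins (92600 to 92850 kb) cover Runx1, and 15 bins (92850 to 93600 kb) cover the stretch beyond it. They were taken with flanks of 1 Mb, which gave 20 bins on the lower side and 17 on the upper side, 58 bins in all of the 47652 analysed. The 3 bins from 94150 to 94300 kb that the upper flank lacks had no value in any library. The stretch was selected on the measured difference between the Early library and the Basal libraries, and its values in that contrast are therefore given as a description, with no support drawn from them. Just outside the chosen limits, the bin at 92500 to 92550 kb read 0.611 and 0.448 in Basal, 1.58 for Early, and 1.21 and 1.04 for Late. Just inside, the bin at 92550 to 92600 kb read 0.228 and 0.175 in Basal, 1.18 for Early, and 0.950 and 0.695 for Late. At the upper limit, the last bin inside (93550 to 93600 kb) read 0.920 and 1.13 in Basal, 1.47 for Early, and 1.46 and 1.51 for Late. The next bin outside read 1.42 and 1.36 in Basal, 1.79 for Early, and 1.90 and 1.92 for Late.

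The data are Hi-C, which joins and sequences DNA pieces that lie close together in the nucleus, from sorted neuronal nuclei of mouse hippocampus. There are 5 libraries, named by their titles Basal (replicates 1 and 2), Early (replicate 1) and Late (replicates 1 and 2). The design text speaks of 2 biological replicates, and 1 Early library was analysed here. All 5 share the strain ArcCreERT2 x R26R-STOP-floxed-eYFP, in which a tamoxifen-dependent Cre under the immediate early gene Arc labels active neurons with a yellow fluorescent protein, the genotype +/+ and a foot shock with collection on day 0 and no recall. Because that treatment label is the same for every library, while the protocol names collections 1.5 to 2 h and 5 days after conditioning, Basal, Early and Late are used only as the titles give them. Each group was made from 100000 nuclei of 2 animals, whose age and sex are not stated. It is not stated how the replicates of a group map to animals, so p-values measure the spread between libraries. The files hold no expression values, so the neuronal identity of the nuclei was not checked here.

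Runx1 encodes a transcription factor with a Runt DNA-binding domain that acts together with its partner Cbfb. It is best known as a regulator of blood cell formation, and in the nervous system from sensory neurons. The gene is transcribed from a distal and a proximal promoter, and it lies at the edge of a long interval without protein-coding genes. Compartments are the large-scale division of chromatin into an open, gene-rich class (A) and a closed, gene-poor class (B), read from the sign of the first principal component (PC1) of the Hi-C contact matrix. In the convention of HOMER, the program used by the authors, positive PC1 means A and negative PC1 means B. PC1 is a score without a unit, scaled to an SD of 1.00 over chromosome 16 in each library.

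In the RefSeq annotation of GRCm38.p6, used only for the order of genes because its build differs from that of the bins, Runx1 lies between Clic6, a member of the chloride intracellular channel family, and Setd4, a member of the SET domain family. Beyond Clic6 follow Rcan1, a regulator of the phosphatase calcineurin, and Kcne1, a potassium channel subunit. Beyond Setd4 follow the carbonyl reductases Cbr1 and Cbr3. Between Runx1 and Setd4 the annotation lists 0 protein-coding genes, 7 long noncoding RNAs and 1 microRNA, Mir802. Which 50 kb bin holds each of these genes was not determined, since no gene positions in mm9 were at hand. Both annotated Runx1 promoters are on the minus strand, so the stretch on the higher-coordinate side is upstream of the gene.

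The start sites of Runx1 are shown because both of its promoters lie within the gene examined and differ in base composition. The windows run from 250 bases before to 50 after each start (RefSeq, GRCm38.p6, minus strand), the distal one at chr16:92826025-92826324 and the proximal one at chr16:92697280-92697579. Those positions belong to GRCm38 and were not placed on the mm9 bins. Capitals mark each CpG, the dinucleotide that vertebrate DNA methylation targets.
Runx1 distal promoter: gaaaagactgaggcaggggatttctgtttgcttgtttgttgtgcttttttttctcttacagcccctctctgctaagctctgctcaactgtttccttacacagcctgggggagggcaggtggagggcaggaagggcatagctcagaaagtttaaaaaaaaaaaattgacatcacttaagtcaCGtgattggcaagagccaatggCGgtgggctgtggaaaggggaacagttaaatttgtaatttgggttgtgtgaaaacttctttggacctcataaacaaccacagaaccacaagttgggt
Runx1 proximal promoter: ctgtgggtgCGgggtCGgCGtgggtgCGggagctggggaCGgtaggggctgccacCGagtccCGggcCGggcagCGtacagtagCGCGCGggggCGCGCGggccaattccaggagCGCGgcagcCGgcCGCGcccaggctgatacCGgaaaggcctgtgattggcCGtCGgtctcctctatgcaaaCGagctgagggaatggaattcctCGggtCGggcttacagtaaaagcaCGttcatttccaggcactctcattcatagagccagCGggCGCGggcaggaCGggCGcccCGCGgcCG

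The distal window holds 2 CpG and 45.0% G and C, and the proximal window 35 CpG and 69.0%. Of 32851 annotated promoter windows of the same length, 85.9% hold at least 2 CpG and 6.95% hold at least 35. The letters TGTGGT, a core of the Runx recognition motif, were searched on both strands. They were found 2 times in the distal window, both times on the reverse strand as ACCACA near its 3′ end, and 0 times in the proximal window. At least 1 match is present in 16.8% of all promoter windows and at least 2 in 1.81%. A match describes the letters only. The single microRNA gene of the upstream interval gives these mature products (RefSeq, GRCm38.p6), with the seed, bases 2 to 8, in capitals, and no other mature mouse microRNA of the table shares either seed.
mmu-miR-802-5p: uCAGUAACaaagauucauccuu
mmu-miR-802-3p: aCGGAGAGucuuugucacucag

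In Basal nuclei the Runx1 stretch was a trough at the border of A and B between strong A flanks. Its mean PC1 over the 21 bins was 0.270 in Basal replicate 1 and 0.189 in replicate 2 (0.229 ± 0.057, SD, n = 2). The flanks averaged 1.50 and 1.49 in the same libraries. Every core bin lay below the median flank bin of its library, and 20 and 19 of 21 lay below the lowest flank bin. The Basal libraries took part in choosing the stretch, which favours low Basal values, so these counts are a description. On the scale of the whole chromosome, the core mean stood above 60.9% and 58.9% of chromosome 16 bins, and the flank mean above 91.0% and 90.8%.

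In the Basal trough a few bins read below 0, most of them in only 1 of the 2 replicates. Replicate 1 was negative in 3 of 21 core bins and replicate 2 in 4 of 21, with a lowest value of -0.0552 at 93150 to 93200 kb and of -0.236 at 93050 to 93100 kb. The bin at 93200 to 93250 kb alone was negative in both, at -0.0245 and -0.175. The other negative readings were positive in the other replicate, such as 93050 to 93100 kb at 0.370 and -0.236, where the Basal replicates lay farthest apart. All 6 bins that were negative in either Basal library lay in the upstream stretch. None of the 21 core bins was negative in Early or in either Late library, and none of the 37 flank bins in any library. The median gap between the Basal replicates was 0.142 per core bin, and 5 of the 7 negative readings were smaller than that in absolute size.

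**Figure D1:**
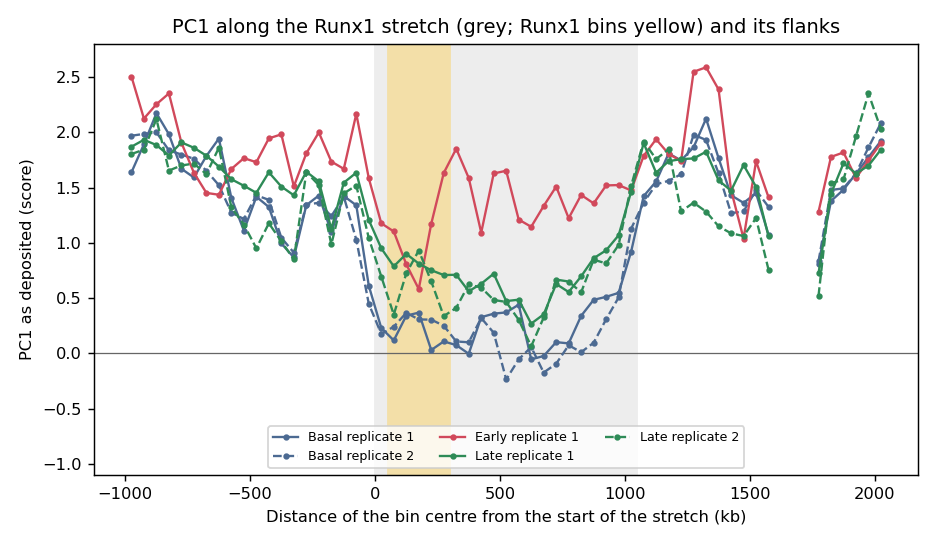
PC1 as deposited (vertical axis, score) in each 50 kb bin against the distance of the bin centre from the start of the stretch (horizontal axis, kb), with 1 line per library, solid for replicate 1 and dashed for replicate 2. The stretch is shaded grey and the Runx1 bins yellow, and the line breaks where 3 bins have no value. Within the stretch Basal lies between -0.236 and 1.13, Late between 0.0628 and 1.51, and Early between 0.582 and 1.85.

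Early stood highest over the stretch. Its core mean was 1.33, against 0.270 and 0.189 in Basal and 0.729 and 0.618 in Late (0.674 ± 0.079, SD, n = 2). Early was above both Basal libraries in 21 of 21 core bins, as it was in 44.1% of all bins. The core mean difference of Early from Basal was 1.10, and limma called 18 of 21 core bins higher, where 9.97% of all bins were called higher in this comparison. Because that contrast chose the stretch, nothing is read from this count. With Early there is 1 library, so its own spread is not measured.

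The Early difference was uneven along the gene and the stretch upstream. It averaged 0.816 over the 5 Runx1 bins and 1.21 over the 15 upstream bins. The smallest value was 0.244, inside the gene at 92700 to 92750 kb, where Early read 0.582 and Basal 0.368 and 0.306. The largest was 1.76, in the bin directly beyond the gene at 92850 to 92900 kb, where Early read 1.85 and Basal 0.0742 and 0.107. Between them, the bin at 92800 to 92850 kb, the last Runx1 bin, differed by 1.45, with Early at 1.63. Upstream, the difference stayed between 0.769 and 1.76 from 92850 to 93550 kb and was 0.450 in the last bin. Early thus had its own low point in the body of Runx1, at a place where the Basal libraries were not at their lowest.

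By correlation over its bins, the profile of the stretch was alike in Basal and Late and different in Early. Over the 21 bins, the Pearson r between libraries was 0.628 for the Basal replicates, 0.865 for the Late replicates and 0.745 to 0.859 between a Basal and a Late library. The Early profile gave r of 0.0177 and -0.124 with Basal and of 0.000561 and -0.0759 with Late. These correlations are descriptions across neighbouring bins, which share reads because PC1 was computed in 100 kb windows, and Early is 1 library. In Basal and Late the highest core bin was the last, at 93550 to 93600 kb, which adjoins the upper flank. It read 0.920 and 1.13 in Basal and 1.46 and 1.51 in Late. Early read 1.47 there, below its highest core value of 1.85. How far the r values rest on this edge bin was not tested. In both Late libraries the lowest core bin was at 93150 to 93200 kb (0.268 and 0.0628), the same bin as in Basal replicate 1. In Early it was the bin at 92700 to 92750 kb.

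The comparison of Late with Basal asks whether the compartment state of the locus in Late nuclei differs from that of Basal nuclei. Late was not part of the contrast that chose the stretch, but the Basal libraries were, so this test is not independent of that choice. The stretch was also chosen with earlier results of these data known. The core mean was higher in Late by 0.444, and both Late libraries lay above both Basal libraries in 20 of 21 core bins, as they did in 30.1% of all bins. The exception was 93100 to 93150 kb, with Basal at 0.440 and -0.0554 and Late at 0.485 and 0.303. In limma, 13 of 21 core bins were called higher in Late and 0 lower, where 8.78% of all bins were called higher. The median difference over the core was 0.463 (median SE 0.127), against -0.0114 over all bins. The count rested on both Basal libraries: it was 3 without Basal replicate 1 and 0 without replicate 2 (10 bins at an unadjusted limma p under 0.05), settings in which 2.74% and 2.94% of all bins were called higher. The mean difference was 0.485 and 0.404 in these settings. With every deposited sequence in the fit, chromosome 7 included, the count was also 0 (15 core bins at an unadjusted limma p under 0.05), as it was over all 50542 bins of that fit (13365 at an unadjusted limma p under 0.05). On chromosome 7 the lowest r between libraries was -0.976, so libraries ran in opposite directions there. The prior degrees of freedom were 2.58 in that fit and 6.60 in the main fit.

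Of the Runx1 bins, 3 of 5 were called higher in Late, where 8.78% of all bins were called higher. The difference was positive in all 5. These bins averaged 0.192 and 0.293 in Basal, 1.06 for Early, and 0.792 and 0.598 for Late. The called bins ran from 92650 to 92800 kb, with a mean difference of 0.509 and a limma adjusted p of at most 0.0363. The bin at 92600 to 92650 kb read 0.117 and 0.241 in Basal and 0.787 and 0.350 in Late, and its difference of 0.389 did not pass (limma adjusted p = 0.127). The Late replicates lay farthest apart there. The bin at 92800 to 92850 kb, where Early stood 1.45 above Basal, differed by 0.344 in Late and did not pass either (limma adjusted p = 0.149).

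In the upstream stretch, 9 of 15 bins were called higher in Late, where 8.78% of all bins were called higher. The difference was positive in all 15. The means were 0.298 and 0.155 in Basal, 1.44 for Early, and 0.694 and 0.619 for Late. The largest difference of the core was here, at 93250 to 93300 kb, where Basal read 0.101 and -0.0944 and Late 0.627 and 0.667 (difference 0.644, SE 0.123, limma adjusted p = 0.0110). The smallest was 0.165 at 93150 to 93200 kb (limma adjusted p = 0.403), with Basal at -0.0552 and 0.0563 and Late at 0.268 and 0.0628. From 92950 to 93200 kb, the 5 bins in the middle, no bin passed, with differences of 0.165 to 0.401. The called bins formed runs on either side of that middle, at 92850 to 92950, 93200 to 93350 and 93400 to 93650 kb. The last run goes 1 bin into the upper flank.

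**Figure D2:**
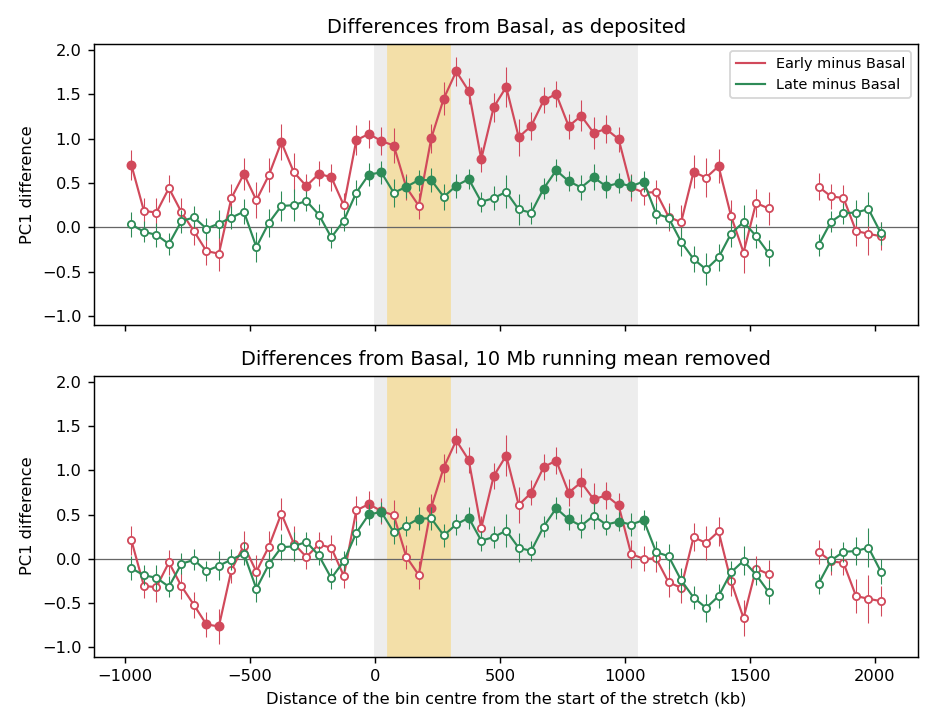
Difference in PC1 from the Basal mean (vertical axis, score; bars are limma standard errors) for Early and Late against the distance from the start of the stretch (horizontal axis, kb), as deposited above and with a 10 Mb running mean removed below. Filled points passed a limma adjusted p of 0.05. Within the stretch Late ranges from 0.165 to 0.644 and Early from 0.244 to 1.76 as deposited.

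In the flanks, 2 of 37 bins were called higher in Late, a count not above the 8.78% of all bins called higher. In the lower flank the mean PC1 was 1.45 and 1.43 in Basal and 1.63 and 1.45 in Late, and 1 of 20 bins was called higher. In the upper flank it was 1.56 and 1.55 in Basal and 1.59 and 1.45 in Late, and 1 of 17 was called. The called flank bins, at 92500 to 92550 kb (difference 0.595, limma adjusted p = 0.0163) and 93600 to 93650 kb (difference 0.517, limma adjusted p = 0.0189), are the ones next to the stretch on each side. No flank bin was called lower. The lowest flank difference was -0.474 at 93850 to 93900 kb (limma adjusted p = 0.106).

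In the flanks the mean difference of Early from Basal was 0.420 on the lower and 0.241 on the upper side. In limma 8 of 20 lower and 2 of 17 upper flank bins were called higher in Early and none lower, against 9.97% of all bins called higher, a share that the upper flank's count lies near. Subtracting the mean of both flanks within each library removes a shift common to the 3 Mb. The core minus the flanks was -1.23 and -1.30 in Basal (-1.27 ± 0.045, SD, n = 2), -0.499 in Early, and -0.880 and -0.832 in Late (-0.856 ± 0.034, SD, n = 2). The trough was thus shallowest in Early, which is 1 library. It was shallower than in Basal by 0.767 in Early and by 0.409 in Late. These values are a description and carry no test, since the Early and Basal libraries chose the stretch. In Early 2 of 21 core bins lay below the lowest flank bin of the same library, in Late 12 and 8, and in Basal 20 and 19.

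**Figure D3:**
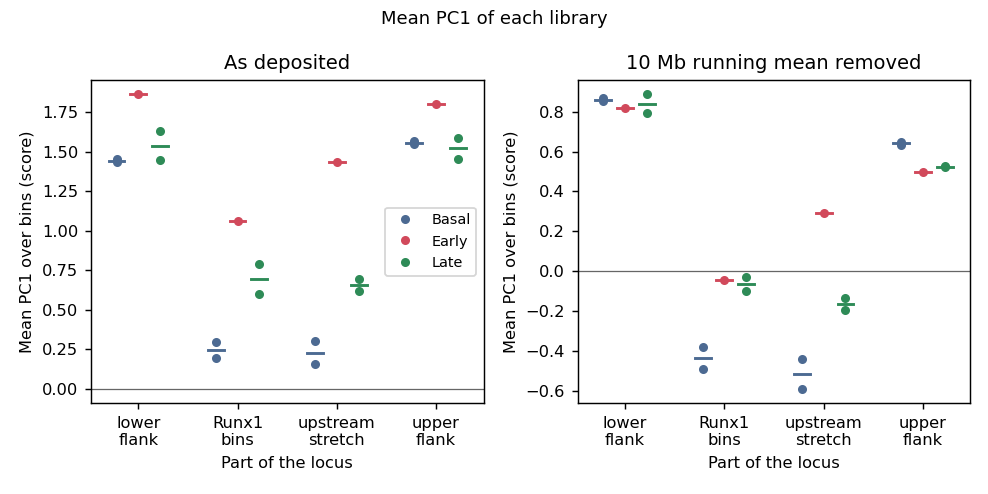
Mean PC1 over the bins of each part (vertical axis, score) in each library, as deposited (left) and with a 10 Mb running mean removed (right). Points are libraries and short bars group means, with 2 Basal, 1 Early and 2 Late libraries. In the Runx1 bins and the upstream stretch both Late libraries lie above both Basal libraries, and Early lies above Late as deposited.

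Part of the Early difference lay in the running mean along the chromosome. The 10 Mb running mean at the core was 0.722 and 0.723 in Basal, 1.13 for Early, and 0.866 and 0.737 for Late. It held 0.411 (37.2%) of the Early difference and 0.0789 (17.8%) of the Late difference. The running mean takes in the core bins themselves, so these shares contain some of the core's own difference. How much lies in the surrounding bins alone was not tested. With the running mean removed, the core read -0.453 and -0.534 in Basal, 0.200 for Early, and -0.137 and -0.119 for Late. The core mean stood above Basal by 0.693 in Early and by 0.365 in Late. In limma 15 of 21 core bins were called higher in Early (6.02% of all bins; the same selection applies) and 6 of 21 in Late (6.34% of all bins). The Late calls were the bins at 92550, 92700, 92900, 93250, 93300 and 93500 kb, of which 92700 to 92750 kb lies in Runx1 (limma adjusted p = 0.0489). In the flanks the Early difference then turned to -0.0398 on the lower and -0.140 on the upper side, with 1 bin called higher and 2 lower (5.71% of all bins lower). From 93350 kb on, the running mean is shortened by the chromosome end.

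With the trend removed, the Early difference was smaller over the gene than over the stretch upstream, as it was in the deposited values (0.816 and 1.21). Over the Runx1 bins, Early read -0.0452 and Late -0.0279 and -0.100, against -0.488 and -0.382 in Basal, so the differences from Basal were 0.389 in Early and 0.371 in Late. Over the upstream stretch, Early read 0.290 and Late -0.192 and -0.133, against -0.442 and -0.588 in Basal, differences of 0.805 and 0.352. At 92700 to 92750 kb the sign of the Early difference turned, from 0.244 as deposited to -0.181, and neither passed (limma adjusted p = 0.256 and 0.459). Whether the gene and the upstream stretch differ in their Early change was not tested.

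The comparison of Late with Early asks whether the level in Late nuclei differs from that in Early. It shares the library that chose the stretch, so it is a description. The core mean of Late was lower by 0.660, with 12 of 21 core bins called lower in limma and none higher (6.44% of all bins lower), of which 1 was a Runx1 bin and 11 lay upstream. The lowest difference was -1.29 at 92850 to 92900 kb, with Early at 1.85 and Late at 0.711 and 0.411. Both Late libraries lay above both Basal libraries and below Early in 17 of 21 core bins, an order found in 8.67% of all bins. In Runx1, the bin at 92700 to 92750 kb went the other way, with Late at 0.812 and 0.930 above Early at 0.582. That bin was called higher in Late once the trend was removed (difference 0.637, limma adjusted p = 0.0451; 3.65% of all bins higher), beside 6 core bins called lower (3.35% of all bins lower). In the flanks, 7 of 37 bins were called lower in Late as deposited.

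Set against the genome, the Late difference was less far out than the Early one. Of 46031 windows of 21 gapless bins, 0.528% had an Early difference at least as high as the stretch, and 5.11% a Late difference at least as high. With the trend removed these shares were 0.656% and 4.97%. Among the 1856 windows of chromosome 16 alone they were 2.75% for Early and 5.93% for Late as deposited, and 0.970% and 7.54% with the trend removed. The lowest correlation between 2 libraries over this chromosome was 0.732, the lowest of the 18 autosomes analysed. The windows overlap, and the Early share describes a stretch picked for that value.

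**Figure D4:**
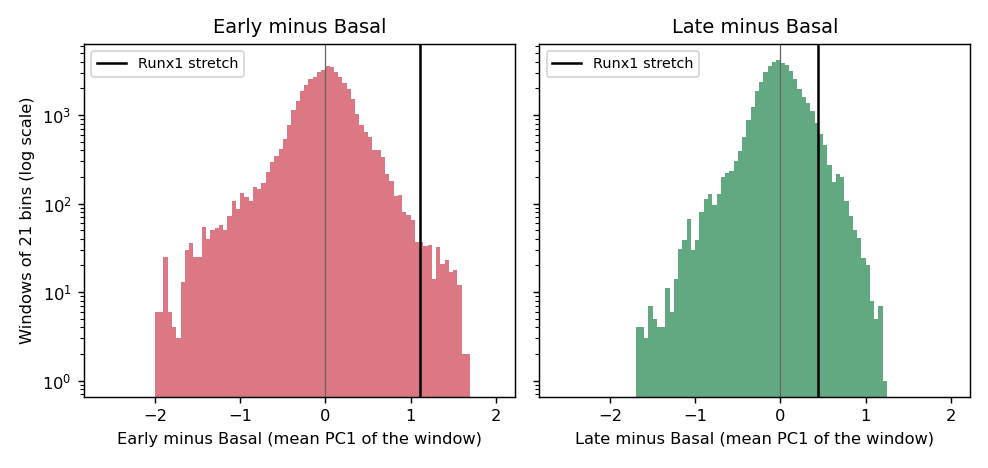
Number of windows of 21 bins (vertical axis, log scale) by their mean PC1 difference from Basal (horizontal axis, score), for Early (left) and Late (right), with the Runx1 stretch as a black line. The stretch lies at 1.10 in Early, far in the right tail, and at 0.444 in Late, inside the right shoulder.

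The 5 windows whose means in the 5 libraries were nearest to those of the stretch were 75.10 to 76.15 Mb and 76.15 to 77.20 Mb of chromosome 5, the intervals of chromosome 13 that begin at 70.55 Mb and 73.15 Mb, and an interval of X that begins at 133.55 Mb. Likeness was the Euclidean distance over the 5 libraries, which was 0.255 to 0.365 for these windows against a median of 2.11 over 45973 windows. The nearest, on chromosome 5, read 0.158 and 0.204 in Basal, 1.24 for Early, and 0.679 and 0.820 for Late. All 5 read between 1.06 and 1.31 in Early. The 2 windows on chromosome 5 adjoin each other, and nothing about shared genes follows from the likeness.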

How the data were processed

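PC1 was given for 5 Hi-C libraries, 1 table each. The deposited PC1 is a signed score per 50 kb bin, made by the authors with HOMER on mm9, per the submitters' processing notes. Per the file headers the tables hold PC1 without counts. Depth is therefore unknown, and no interval for counting error was computed. Not given in the sources used here: aligner, filters, versions and how the sign was set. The bins used have a value in all 5 tables and lie on 18 autosomes and X, on which each pair of libraries correlated with r of at least 0.5. Chromosome 7 failed this rule. PC1 was compared over 47652 bins with limma 3.58.1 (R 4.3.3; all 5 libraries in 1 fit, 2-sided, Benjamini-Hochberg over bins at 0.05), with 2 residual and 6.60 prior degrees of freedom; Early is assumed to vary like the other groups. The fit was tested on simulated data with independent noise of equal spread in every bin, whereas neighbouring real bins share reads. The running mean spanned 201 bins. Python 3.11.15, numpy 2.4.6, pandas 2.3.3 and matplotlib 3.10.9 did the rest. The stretch, its subdivisions and the tests were chosen with earlier results of these data known. The named bins are those with the largest and smallest difference, those called, and those where the sign changes. The nearest windows were ranked by distance over libraries, leaving out the flanks. Alternatives were other scalings, other sets of bins, library weights, a replicate block and leaving out each library.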

Additional observations from a re-analysis of the deposited data

How the results depend on the processing

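The core mean difference kept its sign in every alternative run for all 3 comparisons. With a 10 Mb running mean removed it was 0.693 for Early minus Basal, 0.365 for Late minus Basal and -0.328 for Late minus Early, and with a 20 Mb running mean removed 0.710, 0.327 and -0.383. With chromosome medians and SDs aligned it was 0.978 for Early minus Basal and -0.584 for Late minus Early. The limma count of core bins for Late versus Basal, 13 as reported, was 6 and 4 with the 10 and 20 Mb means removed, 8 with chromosomes aligned, 0 with all sequences fitted as deposited (15 at an unadjusted p under 0.05) and 0 to 17 on leaving out 1 library. For Late versus Early, 12 as reported, it was 7 with the 10 Mb mean removed and 0 with all sequences fitted (15 at an unadjusted p under 0.05). With all sequences fitted the differences are the same numbers, while the shared variance and the number of bins in the adjustment change. The Early versus Basal count of 18 ran from 12 to 20 over its alternatives. The titles number the replicates, but the Basal and Late deviations of equal number did not go together (r = 0.0101), so the numbers are not read as pairs. With a replicate block, 14 core bins were called in Late against Basal, 18 in Early against Basal and 11 in Late against Early. Depth is unknown, and how much of the bin-to-bin spread it sets was not tested.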
